A study of Mus musculus with 24 samples.

Results

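The genes followed here are subunits of the transcription factor NF-κB and genes that restrain or adjust its action, 10 genes chosen by name. The subunit genes are Rela, Relb, Nfkb1 and Nfkb2. Nfkbia and Nfkbie are inhibitor genes, Nfkbiz and Bcl3 encode nuclear relatives of those inhibitors, and Tnfaip3 and Ier3 are feedback genes. The members are 10 of the 55487 genes listed in the data, and all 10 were among the 14541 genes with enough signal to be tested. The question was whether these genes, several of which are transcribed by NF-κB itself, follow the chemokines in responding less to electrical stimulation under 1 % O2.

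NF-κB is a family of DNA-binding dimers that inhibitor proteins of the IκB class hold in the cytoplasm. Inflammatory, calcium and redox signals lead to phosphorylation and breakdown of the inhibitor, after which the dimers enter the nucleus and switch on chemokine, cytokine and survival genes. Among the genes switched on are the inhibitors themselves, which end the response, so their transcripts serve as a common readout of NF-κB activity. In skeletal muscle the pathway is known from contraction, wasting and regeneration.

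The samples were cultures of C2C12, an established mouse myoblast line of wild-type genotype that fuses into contractile myotubes, all differentiated under 5 % O2 and taken on day 5. Before stimulation the myotubes were kept for 2 h under 5 % or 1 % O2, the latter being the hypoxic condition. There were 4 groups of 6 biological replicates: unstimulated myotubes under 5 % O2 (5 % CTRL) or 1 % O2 (1 % CTRL), and myotubes given bouts of electrical pulses under 5 % O2 (5 % STIM) or 1 % O2 (1 % STIM) and collected immediately afterwards. The model is a single cell line without nerve, vessels or immune cells, and medium was changed around stimulation. Whether unstimulated wells had the same medium changes is not given in the sources used here. Nor is it given whether they were kept for the added time that the bouts took. Medium change, added time and electrical pulses therefore cannot be told apart.

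Reads assigned to genes, as recovered from the normalized counts, numbered between 26541858 and 28173745 in the 24 libraries. Values are normalized counts, that is reads divided by a size factor for each library, and these factors lay between 0.9545 and 0.9925 under 5 % O2 and between 1.0167 and 1.0508 under 1 % O2. Replicate 1 of 1 % CTRL stood apart from its group, with a chi-square per gene of 14.6 to 21.4 against the other 1 % CTRL libraries, which differed among themselves by 2.54 to 4.80 (3.20 to 12.1 within the other groups), and with a limma array weight of 0.287 where the other libraries had 0.671 to 1.58. Without it all calls of members were kept, and Rela was also called for stimulation under 5 % O2 (adjusted p = 0.0423). All 12 myotube markers were expressed in every group. Their summed level was 578265 to 634837 normalized counts in 5 % CTRL and 531605 to 577017 in 1 % CTRL. It was 515214 to 595190 in 5 % STIM and 519645 to 578121 in 1 % STIM. Single markers differed in direction. Myog averaged 30613 in 5 % CTRL, 21265 in 5 % STIM, 19439 in 1 % CTRL and 12522 in 1 % STIM. Myh1 averaged 114064 in 5 % CTRL and 122731 in 1 % CTRL. The summed level of 6 markers of undifferentiated myoblasts or reserve cells was 3410.0 to 3883 normalized counts in 5 % CTRL, 4037 to 6167 in 1 % CTRL, 3837 to 4463 in 5 % STIM and 4257 to 5248 in 1 % STIM, and its part in the results was not tested. These 6 markers also differed in direction: Top2a averaged 1264 in 5 % CTRL and 2130 in 1 % CTRL, and Ccnb1 428 and 304. The 5 leukocyte markers summed to at most 109.8 normalized counts in any library and the 4 endothelial markers to at most 25.7. In such bulk RNA, fewer cells of a type and less RNA per cell cannot be told apart.

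Sequence before RefSeq transcript starts of the members is shown first, because a κB element there is the textbook route by which NF-κB acts on its own genes. RefSeq windows of the 250 bases before an annotated transcript start (mouse build GRCm38.p6) were at hand for 7 of the 10 members, in 10 windows. They were searched on both strands for the κB consensus, a degenerate pattern of 10 bases that opens with G and closes with C, which was present in 3.90 % of all 32851 windows and near 4.46 % of the 27025 genes with a window. Nfkbia, Nfkbie, Nfkb2, Tnfaip3 and Ier3 held a match, and Rela and Bcl3 held none in their windows. The full stretch before the first exon is printed for Nfkbia, Nfkbie and Ier3, and 30 bases around selected matches for Nfkb2 and Tnfaip3, each 5′ to 3′ on the strand of the gene with the bases of the match in capitals.
Nfkbia, chr12:55492648-55492897, minus strand: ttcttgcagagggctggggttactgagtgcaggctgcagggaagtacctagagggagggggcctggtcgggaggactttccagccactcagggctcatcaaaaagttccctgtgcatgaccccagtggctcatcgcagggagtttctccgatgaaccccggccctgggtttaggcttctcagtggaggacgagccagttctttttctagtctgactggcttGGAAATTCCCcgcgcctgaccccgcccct
Nfkbie, chr17:45555450-45555699, plus strand: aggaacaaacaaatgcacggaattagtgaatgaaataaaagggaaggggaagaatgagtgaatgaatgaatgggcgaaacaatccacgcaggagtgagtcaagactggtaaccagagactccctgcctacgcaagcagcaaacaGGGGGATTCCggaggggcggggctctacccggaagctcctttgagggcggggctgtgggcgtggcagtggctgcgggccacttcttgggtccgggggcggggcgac
Ier3, chr17:35821463-35821683, plus strand: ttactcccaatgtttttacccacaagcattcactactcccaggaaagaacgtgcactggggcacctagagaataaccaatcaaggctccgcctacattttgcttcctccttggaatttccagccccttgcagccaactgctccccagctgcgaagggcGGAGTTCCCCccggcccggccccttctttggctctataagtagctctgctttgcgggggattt
Tnfaip3, chr10:19015516-19015545, minus strand: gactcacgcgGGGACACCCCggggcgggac
Tnfaip3, chr10:19015411-19015440, minus strand: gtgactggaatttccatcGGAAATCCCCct
Nfkb2, chr19:46304689-46304718, plus strand: gatcgtcacGGGAATTCCCCccctcggggg
Nfkb2, chr19:46305695-46305724, plus strand: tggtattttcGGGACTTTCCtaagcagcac

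These starts are those of RefSeq. In the GENCODE M21 annotation both Nfkb2 stretches lie within the gene, with 30 and 29 of their 30 bases in an exon, and both Tnfaip3 stretches lie within the gene and outside its exons. The Nfkbia match lay 29 to 20 bases before the transcript start, that of Nfkbie 106 to 97 bases and that of Ier3 92 to 83 bases before it. The capitals of the first Nfkb2 stretch cover 3 overlapping matches, of which a palindrome was counted once on each strand. The same windows were searched for ACGTG and GCGTG, the cores bound by hypoxia-inducible factors, with 38.6 % of all windows and 41.5 % of all genes holding either of them. Of the 7 members with a window 4 held one, namely Nfkb2, Nfkbie, Tnfaip3 and Ier3. Nfkb2 held 2 GCGTG matches in each of 2 windows and Nfkbie held 2 GCGTG matches. The first Tnfaip3 window held 3 ACGTG matches, 2 of them overlapping on opposite strands, besides 2 GCGTG matches, its second window 1 match of each, and that of Ier3 held 1 ACGTG match, 202 to 198 bases before the start. Such matches describe the letters in these windows and say nothing of binding.

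Under 5 % O2, electrical stimulation raised 9 of the 10 members, all except Rela, with a median log2 fold change of 0.98 over the members against -0.01 over all genes tested. Under 1 % O2 the members no longer moved one way: 4 rose, 3 fell and 3 did not pass the test. Called here means a Benjamini-Hochberg adjusted p under 0.05 in limma, and among all genes tested 9.44 % rose and 12.0 % fell with stimulation under 5 % O2, against 11.5 % and 10.8 % under 1 % O2. The difference between both responses, the interaction, was below 0 for all 10 members and called for 9, while 5.43 % of all genes had a called negative interaction and 5.88 % a called positive one. The plot of the members' values by library shows these levels.

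**Figure D1:**
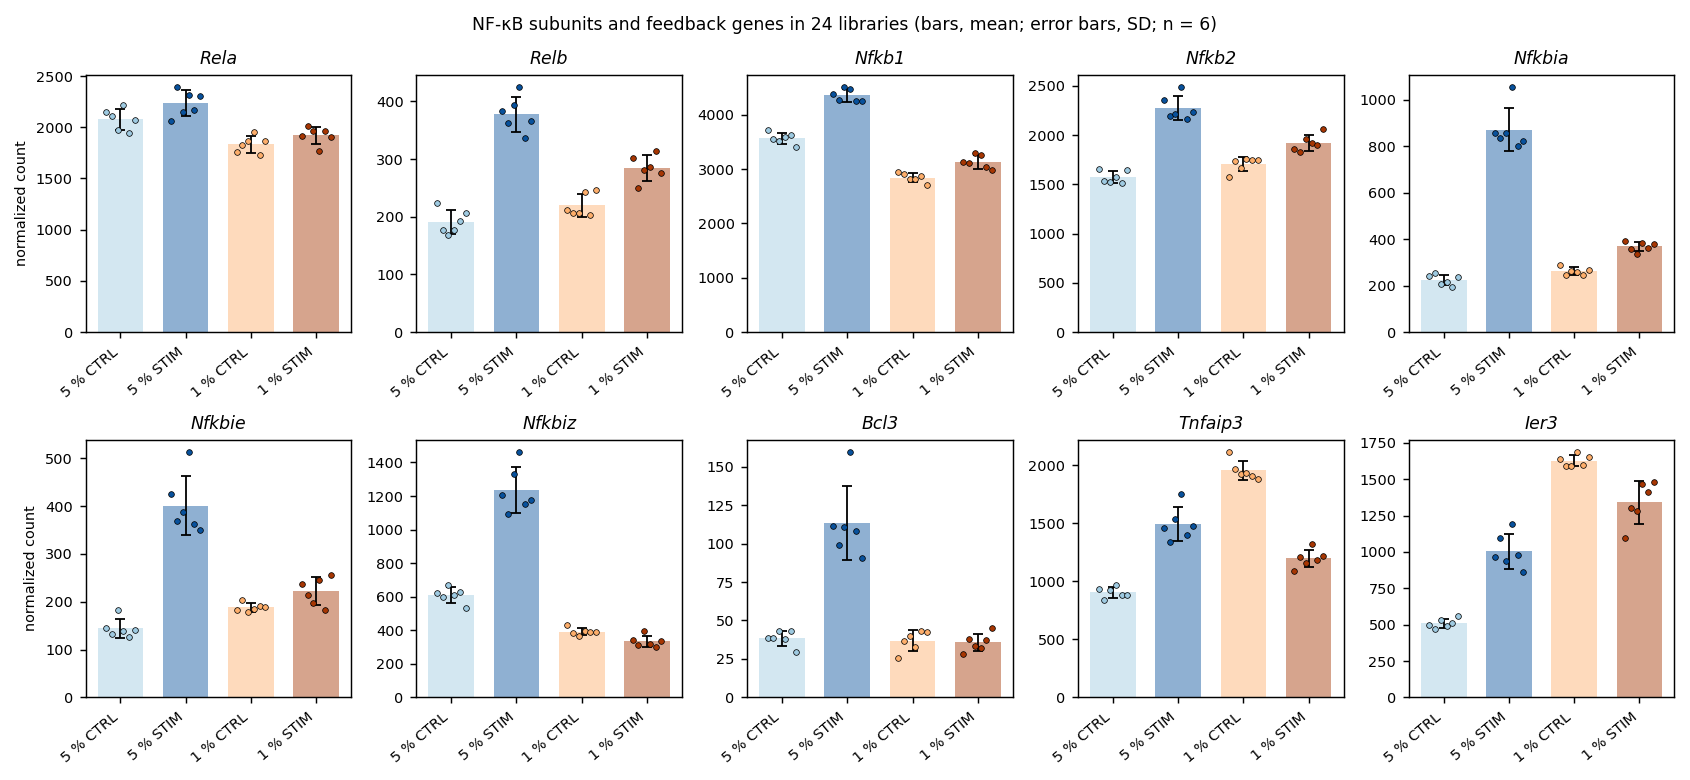
Normalized count of each NF-κB member (linear axis from 0) in the 4 groups; points are libraries, bars are means and error bars SD (n = 6). The highest group was 5 % STIM for 8 members and 1 % CTRL for Tnfaip3 and Ier3, whose unstimulated values under 1 % O2 lay above every other library.

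Rela encodes p65, the subunit that carries the main activation domain and is regulated largely by its location in the cell. Its gene lies at chr19:5637483-5648130. Rela ranged from 1945 to 2213 normalized counts in 5 % CTRL (median 2091), from 2059.95 to 2395 in 5 % STIM (median 2239), from 1727 to 1954 in 1 % CTRL (median 1846) and from 1771 to 2009 in 1 % STIM (median 1937). Stimulated and unstimulated libraries overlapped under either O2 level. The response to stimulation was 0.10 ± 0.04 on the log2 scale (SE, adjusted p = 0.0550) under 5 % O2 and 0.07 ± 0.04 (adjusted p = 0.240) under 1 % O2. Its interaction of -0.04 had a 95 % confidence interval from -0.15 to 0.08 (adjusted p = 0.737). Rela was instead lower in hypoxia, whether or not the myotubes were stimulated. The difference between 1 % and 5 % O2 was -0.18 ± 0.04 without stimulation (adjusted p = 1.81e-04) and -0.22 ± 0.04 with it (adjusted p = 1.62e-05). After scaling each library to 1 common total, the first of these was -0.10 (adjusted p = 0.0236), and the response under 5 % O2 passed the test at an adjusted p of 0.00890.

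Nfkb1 encodes the precursor of p50, the usual partner of p65, and lies at chr3:135584655-135691547. It was expressed at 3414 to 3720.5 normalized counts in 5 % CTRL (median 3571), 4245 to 4513 in 5 % STIM (median 4323), 2714 to 2939 in 1 % CTRL (median 2849) and 2978 to 3299 in 1 % STIM (median 3117). The 4 groups did not overlap, and both 1 % O2 groups lay below both 5 % O2 groups. Stimulation raised Nfkb1 by 0.29 ± 0.03 on the log2 scale under 5 % O2 (adjusted p = 2.50e-09) and by 0.14 ± 0.03 under 1 % O2 (adjusted p = 4.70e-04). The interaction of -0.15 ± 0.04 was the smallest of the 9 called ones (adjusted p = 0.0180) and did not pass a threshold of 0.01.

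Nfkb2 and Relb encode the subunits of the alternative pathway, p100, which is processed to p52, and RelB. Nfkb2, at chr19:46304320-46312385, lay between 1509 and 1658 normalized counts in 5 % CTRL (median 1553), 2161 and 2490.1 in 5 % STIM (median 2222), 1579 and 1760.3 in 1 % CTRL (median 1743) and 1827 and 2059.8 in 1 % STIM (median 1912). The stimulated libraries were above the unstimulated ones at each O2 level, and those of 5 % STIM above all others. Its response was 0.53 ± 0.04 under 5 % O2 (adjusted p = 3.23e-13) and 0.17 ± 0.04 under 1 % O2 (adjusted p = 6.94e-04), with an interaction of -0.36 ± 0.05 (adjusted p = 1.31e-05). Of the Nfkb2 exon sequence, 18.1 % also lies in the antisense genes Psd and AC114539.1. The counting was not stated to use strand, so reads from the shared stretch are uncertain. Psd averaged 134 normalized counts in 5 % CTRL, 187 in 5 % STIM, 139 in 1 % CTRL and 173 in 1 % STIM. AC114539.1 averaged 37.6 in 5 % CTRL, 50.3 in 5 % STIM, 53.6 in 1 % CTRL and 72.1 in 1 % STIM.

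Relb, at chr7:19606217-19629438, was expressed at a lower level, from 168 to 224 normalized counts in 5 % CTRL (median 185), 336 to 425 in 5 % STIM (median 375), 203 to 247 in 1 % CTRL (median 209.8) and 249.8 to 314 in 1 % STIM (median 284). Every stimulated library was above every unstimulated library, and 5 % STIM lay above 1 % STIM without overlap. The response was 0.99 ± 0.07 under 5 % O2 (adjusted p = 1.38e-12) and 0.37 ± 0.07 under 1 % O2 (adjusted p = 2.24e-04). The interaction was -0.61 ± 0.10 (adjusted p = 9.57e-05), so that the response under 1 % O2 amounted to 37.8 % of that under 5 % O2 on the log2 scale, against 32.5 % for Nfkb2 and 48.8 % for Nfkb1.

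Nfkbia encodes IκBα, the principal cytoplasmic inhibitor and an early NF-κB target, and lies at chr12:55489410-55492647 behind the upstream stretch printed above. It showed the largest response of the 10 members to stimulation under 5 % O2. Values were 195 to 254 normalized counts in 5 % CTRL (median 225) and 800.5 to 1056 in 5 % STIM (median 846). Under 1 % O2 they were 244 to 290.2 without stimulation (median 261) and 338 to 392 with it (median 373). Stimulated libraries were higher at both O2 levels, and even the lowest library of 5 % STIM was above the highest of 1 % STIM. Group means were 872 ± 92.7 (SD, n = 6) in 5 % STIM and 369 ± 20.4 in 1 % STIM. The log2 response was 1.95 ± 0.07 (SE, adjusted p = 1.31e-21) under 5 % O2 and 0.49 ± 0.07 (adjusted p = 4.84e-07) under 1 % O2, which was 25.3 % of the former. Their difference was -1.46 ± 0.09 (adjusted p = 1.97e-13).

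Nfkbie encodes IκBε, an inhibitor that is resynthesized later than IκBα, and lies at chr17:45555703-45563169. It was at 127 to 182 normalized counts in 5 % CTRL (median 139), 349.8 to 513 in 5 % STIM (median 378), 179 to 204 in 1 % CTRL (median 187) and 182 to 255 in 1 % STIM (median 226). The 5 % STIM libraries stood above all others, while stimulated and unstimulated libraries overlapped under 1 % O2. Nfkbie rose by 1.47 ± 0.09 under 5 % O2 (adjusted p = 1.05e-14). Under 1 % O2 its response was 0.23 with a 95 % confidence interval from 0.04 to 0.41 (adjusted p = 0.0702), and the interaction was -1.24 ± 0.13 (adjusted p = 1.21e-08). The response under 1 % O2 passed the test without replicate 4 of 5 % STIM (adjusted p = 0.0467) and with rescaled libraries (adjusted p = 0.0481).

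**Figure D2:**
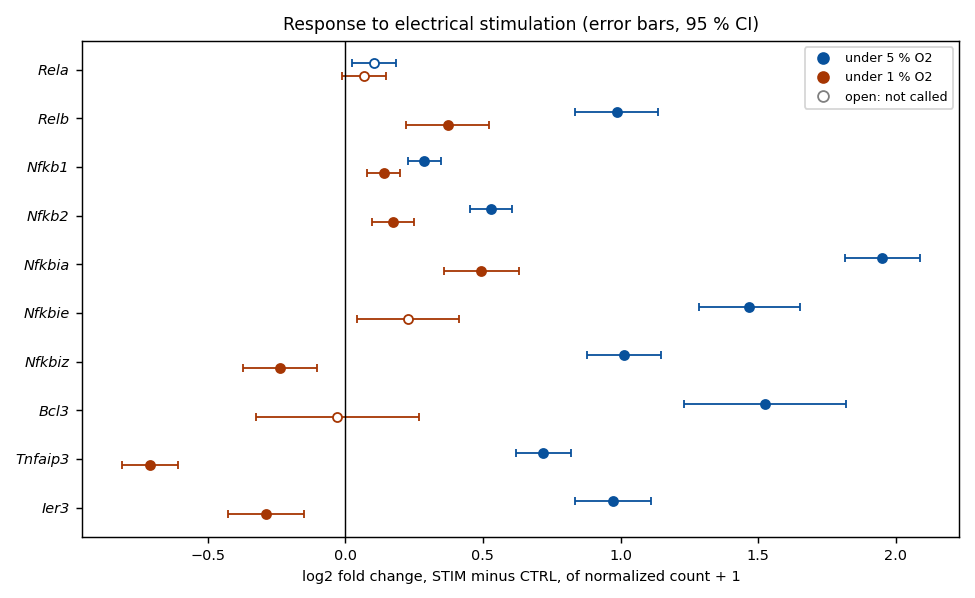
Response of each member to electrical stimulation as log2 fold change (STIM minus CTRL, of normalized count + 1) under 5 % O2 (blue) and 1 % O2 (brown); points are limma estimates over 6 libraries a group, error bars 95 % confidence intervals, open points not called. The responses under 5 % O2 ran from 0.10 (Rela) to 1.95 (Nfkbia), and those under 1 % O2 from -0.71 (Tnfaip3) to 0.49 (Nfkbia).

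Nfkbiz and Bcl3 encode IκBζ and Bcl-3, nuclear proteins that bind p50 or p52 on DNA and adjust which target genes are transcribed. Nfkbiz, at chr16:55811375-55838899, was at 532 to 672 normalized counts in 5 % CTRL (median 616) and 1092 to 1462 in 5 % STIM (median 1191). In hypoxia it was at 364 to 429 in 1 % CTRL (median 388) and 297 to 397 in 1 % STIM (median 325). Libraries under 1 % O2 were thus all below those under 5 % O2, and the hypoxic groups overlapped. Nfkbiz rose by 1.01 ± 0.07 with stimulation under 5 % O2 (adjusted p = 4.84e-14). Under 1 % O2 it fell by 0.24 on the log2 scale (SE 0.07, adjusted p = 0.00750). The interaction was -1.25 ± 0.09 (adjusted p = 1.08e-11), and among stimulated myotubes the difference between 1 % and 5 % O2 was -1.89 ± 0.07 (adjusted p = 3.14e-22), the largest of the members.

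Bcl3, at chr7:19808462-19822770, was the least abundant member. Its values were 29.3 to 43.3 normalized counts in 5 % CTRL (median 38.5), 90.8 to 159 in 5 % STIM (median 109.7), 25.6 to 43.2 in 1 % CTRL (median 38.2) and 28.3 to 44.8 in 1 % STIM (median 35.6). Only the 5 % STIM libraries stood apart, all above every other library, while the other groups shared 1 range. Bcl3 rose by 1.53 ± 0.14 under 5 % O2 (adjusted p = 3.93e-10). Its response under 1 % O2 was -0.03 with a 95 % confidence interval from -0.32 to 0.27 (adjusted p = 0.924). The interaction of -1.55 ± 0.20 (adjusted p = 1.57e-06) was the largest of the members. Gm16175, an antisense gene over 6.51 % of the Bcl3 exon sequence, was at 0 in all group means.

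Tnfaip3 encodes A20, a ubiquitin-editing enzyme that shuts off signalling from cytokine receptors to NF-κB, and lies at chr10:19000910-19015657. Unlike the inhibitor genes it was highest in unstimulated myotubes under 1 % O2. Its values were 836 to 968 normalized counts in 5 % CTRL (median 906), 1342 to 1754 in 5 % STIM (median 1468), 1884 to 2113 in 1 % CTRL (median 1928) and 1091 to 1322 in 1 % STIM (median 1196.5). All 4 groups were separate, in the order 5 % CTRL, 1 % STIM, 5 % STIM and 1 % CTRL. Stimulation raised Tnfaip3 by 0.72 ± 0.05 under 5 % O2 (adjusted p = 1.89e-13). Under 1 % O2 the gene fell by 0.71 on the log2 scale (SE 0.05, adjusted p = 2.32e-13). The interaction of -1.43 ± 0.07 had the smallest adjusted p of the members (3.08e-16). The gene was thus higher than in 5 % CTRL after either treatment given singly. Hypoxia without stimulation raised Tnfaip3 from 905 ± 47.0 to 1955 ± 82.4 normalized counts (SD, n = 6), a log2 difference of 1.11 ± 0.05 (SE, adjusted p = 1.88e-19).

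Ier3 encodes a small, short-lived protein induced by growth factors and stress that is reported to limit NF-κB and to affect survival, and lies at chr17:35821684-35822923. It was at 473 to 559 normalized counts in 5 % CTRL (median 503), 861 to 1192 in 5 % STIM (median 973), 1593 to 1686.5 in 1 % CTRL (median 1620.4) and 1095 to 1478 in 1 % STIM (median 1358). Every 1 % CTRL library was above all others, and the stimulated groups overlapped. Stimulation raised Ier3 by 0.97 ± 0.07 under 5 % O2 (adjusted p = 7.73e-12). The level fell by 0.29 on the log2 scale under 1 % O2 (SE 0.07, adjusted p = 0.00204), with an interaction of -1.26 ± 0.09 (adjusted p = 2.43e-10). In unstimulated myotubes the change with hypoxia was 1.67 ± 0.07 (adjusted p = 5.22e-18), the largest of the members, and Ier3 was the only member higher under 1 % O2 after stimulation, by 0.42 ± 0.07 (adjusted p = 5.99e-06).

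Without stimulation, 2 h under 1 % O2 raised 6 members, Ier3, Tnfaip3, Nfkbie, Nfkbia, Relb and Nfkb2, and lowered Nfkbiz, Nfkb1 and Rela. Among all genes tested 29.4 % rose and 30.5 % fell in this comparison, so a call by itself was common. Beyond Ier3 and Tnfaip3 the rises were small, 0.39 ± 0.09 for Nfkbie (adjusted p = 3.31e-04), 0.22 ± 0.07 for Nfkbia (adjusted p = 0.00425), 0.21 ± 0.07 for Relb (adjusted p = 0.0164) and 0.12 ± 0.04 for Nfkb2 (adjusted p = 0.00821), and for each of these 4 genes libraries of the groups overlapped. Nfkbiz changed by -0.64 ± 0.07 (adjusted p = 3.43e-10) and Nfkb1 by -0.33 ± 0.03 (adjusted p = 1.30e-11). Bcl3 changed by -0.07 with a 95 % confidence interval from -0.37 to 0.22 (adjusted p = 0.687). The Nfkb2 difference was 0.20 when each library was scaled to 1 common total.

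After stimulation the same O2 contrast was negative for 9 members and positive for Ier3, where 28.4 % of all genes tested were lower and 29.0 % higher under 1 % O2. The median over the members was -0.44, against 0.16 in unstimulated myotubes. Largest after Nfkbiz were Bcl3 at -1.63 ± 0.14 (adjusted p = 1.15e-11), Nfkbia at -1.23 ± 0.07 (adjusted p = 3.13e-17) and Nfkbie at -0.85 ± 0.09 (adjusted p = 8.04e-10). Tnfaip3 was lower by -0.32 ± 0.05 (adjusted p = 1.46e-06). For Tnfaip3, Nfkbia, Nfkbie, Relb and Nfkb2 the sign of the O2 difference was therefore opposite in unstimulated and stimulated myotubes, with both differences called. These 5 genes were singled out after their values were seen.

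**Figure D3:**
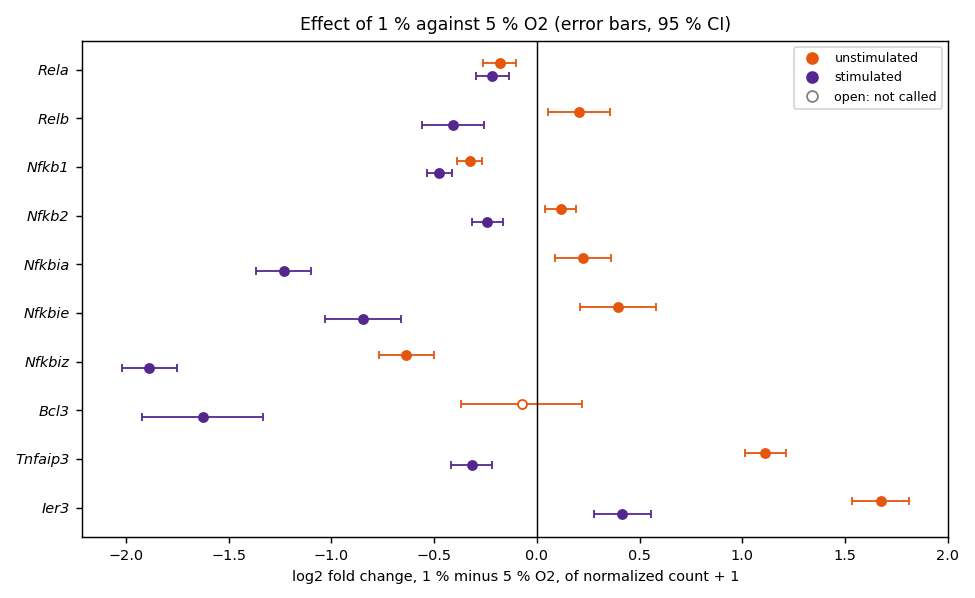
Difference between 1 % and 5 % O2 for each member as log2 fold change (of normalized count + 1) in unstimulated (orange) and stimulated (purple) myotubes; points are limma estimates over 6 libraries a group, error bars 95 % confidence intervals, the open point not called. Ier3 lay at 1.67 and 0.42, Nfkbiz at -0.64 and -1.89.

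The chemokine genes, the textbook outputs that the members were set against, mostly rose under 5 % O2, and more of them than not had a called smaller response in hypoxia. Of 22 listed chemokines 14 were tested, and 4 of these, Ccl20, Cxcl2, Cxcl9 and Cxcl10, reached the minimum level only through 5 % STIM, so that a rise there was fixed by their selection and they are left out of the counts. Cxcl1 and Cxcl5 reached it only through the stimulated groups, so their rise with stimulation also followed from their selection. Both remain in the counts and medians below, which for the responses to stimulation partly reflect this selection. All 10 members reached it in unstimulated libraries. Of the other 10 chemokines, 7 rose and 1 fell with stimulation under 5 % O2, with a median log2 fold change of 1.11 against 0.98 for the members. Under 1 % O2, 4 rose and 2 fell. Of the 10, 6 had a called negative interaction and none a positive one, with a median of -1.06 against -1.25 for the members and 0.01 for all genes tested. These medians describe unequal lists and were not compared by a test. The chemokine medians include Ccl25, Cxcl12 and Cxcl14, which had no called rise with stimulation under 5 % O2. The chemokine gene Ccl7, above the minimum level in every 5 % CTRL library, averaged 35.0 normalized counts in 5 % CTRL and 899 in 5 % STIM. Under 1 % O2 it averaged 19.6 in 1 % CTRL and 101 in 1 % STIM. Its log2 response was 4.63 under 5 % O2 and 2.31 under 1 % O2, and both were called. The latter was 49.9 % of the former. Among other rising chemokines above the minimum level without stimulation, this share was 49.6 % for Ccl2 and 19.1 % for Cxcl16. It was 19.0 % for Cx3cl1 and -43.0 % for Ccl9, where a negative share is a fall. For the 9 members that rose under 5 % O2 the share had a median of 15.5 %, from -98.6 % to 48.8 %. The shares were not compared by a test.

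Other genes of the pathway were described from lists set by their roles. Rel, which encodes the subunit c-Rel, averaged 513 normalized counts in 5 % CTRL, 630.3 in 5 % STIM, 434 in 1 % CTRL and 422 in 1 % STIM, with a response of 0.30 ± 0.06 under 5 % O2 (adjusted p = 4.05e-04) and an interaction of -0.33 ± 0.09 (adjusted p = 0.00911). Nfkbib, which encodes IκBβ, was not called in any comparison, and its interaction was -0.21 ± 0.19 (adjusted p = 0.540). A further list held 20 genes for ubiquitin handling or for negative regulation, leaving out Birc3 as tested only through its level in 5 % STIM. Of these 20 genes, 7 rose and 1 fell with stimulation under 5 % O2, and 8 rose and 1 fell under 1 % O2. A negative interaction was called for 3 and a positive one for 4. The gene with the largest called change among them, counting only genes of at least 100 normalized counts, was Zc3h12a, which encodes an RNase that degrades inflammatory mRNAs. It averaged 317 normalized counts in 5 % CTRL, 1090.5 in 5 % STIM, 219 in 1 % CTRL and 283 in 1 % STIM. Its response was 1.77 ± 0.08 under 5 % O2 (adjusted p = 9.06e-19) and 0.37 ± 0.08 under 1 % O2 (adjusted p = 4.12e-04), and the interaction was -1.41 ± 0.11 (adjusted p = 1.82e-11).

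The kinases that phosphorylate the inhibitors, and those that activate them, moved in both directions. Of 16 genes for the IKK complex and its upstream kinases, 3 rose and 3 fell with stimulation under 5 % O2, and 2 had a positive and none a negative called interaction, with a median of 0.06. Of 17 receptor and adaptor genes, without Traf1 on the same ground, 6 rose and 2 fell under 5 % O2 and 6 had a negative and 1 a positive interaction. Tlr2, a receptor for bacterial lipopeptides, rose by 1.02 ± 0.08 under 5 % O2 (adjusted p = 1.10e-12) and by 0.43 ± 0.08 under 1 % O2 (adjusted p = 4.07e-05). Of 18 NF-κB targets outside chemokines and members, without Csf2 on the same ground, 12 rose and 3 fell under 5 % O2, and 10 had a negative and 1 a positive interaction (median -0.22). Irf1, which encodes an interferon regulatory factor, averaged 559 normalized counts in 5 % CTRL, 921 in 5 % STIM, 950.1 in 1 % CTRL and 643 in 1 % STIM. It rose with stimulation under 5 % O2 and fell under 1 % O2, as Tnfaip3 and Ier3 did, and its interaction was -1.28 ± 0.08 (adjusted p = 1.97e-13). A few other targets had a larger estimated response under 1 % O2. Only 1 positive interaction was called in this list, so most of these differences did not pass the test. Pim1 had the largest called response under 5 % O2 among those of at least 100 normalized counts, 1.83 against 2.51 under 1 % O2. Myc responded by 0.41 under 5 % and 0.50 under 1 % O2, and Plk3 by 0.37 and 0.52.

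**Figure D4:**
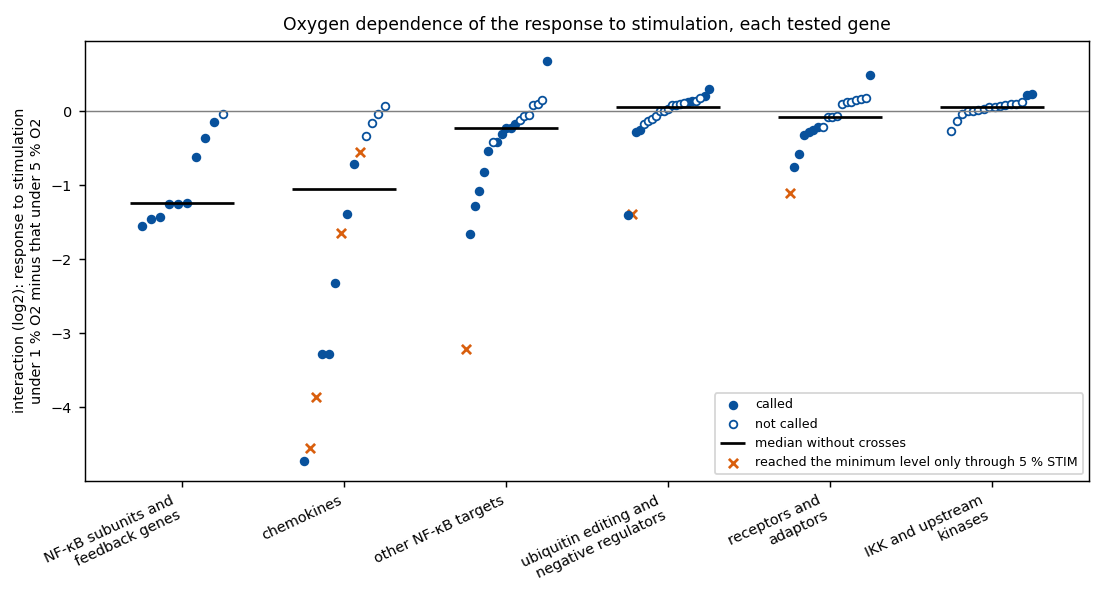
Interaction (log2 response to stimulation under 1 % O2 minus that under 5 % O2) of each tested gene, for the 10 members and 5 lists of related genes; filled points were called, open points were not, crosses are genes that reached the minimum level only through 5 % STIM, and bars are the median of each list without the crosses. Members had a median of -1.25, chemokines -1.06, other NF-κB targets -0.22 and the kinases 0.06.

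Across the 9 members with a called interaction, 3 shapes could be told apart after their values were seen. Relb, Nfkb1, Nfkb2 and Nfkbia rose under both O2 levels with a smaller rise in hypoxia. Nfkbie and Bcl3 rose under 5 % O2 and had no called response in hypoxia. Nfkbiz, Tnfaip3 and Ier3 rose under 5 % O2 and fell in hypoxia, the last 2 from an unstimulated level already above that of 5 % STIM. Replicate 4 of 5 % STIM held the highest value of its group for 8 of the 10 members, and with that library left out the same 9 members rose under 5 % O2 and the same 9 had a called interaction.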

How the data were processed

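The labels placed 24 C2C12 libraries in 4 groups of 6. The authors prepared stranded mRNA libraries, checked single-end reads with FastQC 0.11.7, aligned them to GRCm38 with STAR 2.5.4b, counted with RSEM 1.3.0 at default parameters and deposited counts normalized with DESeq2, a signal per gene that is no longer a raw count. A second deposited table holds the authors' own fold changes and p-values and was not used. The deposited values gave whole reads for 100.0 % of values (tolerance 0.01), which recovered the number of reads assigned to genes in each library. Group identity came from the sample labels.

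Genes reaching 10 normalized counts in 6 or more libraries were tested in limma 3.58.1 (R 4.3.3, intensity trend, robust) on log2(normalized count + 1), all 4 groups in 1 fit. The fold change on this scale understates the change of low genes, such as Cxcl1 and Bcl3. P-values were adjusted by Benjamini-Hochberg over all 14541 genes. The spread measured is that between cultures of 1 line. Alternatives were edgeR 4.0.16, voom and DESeq2 1.42.0 on the recovered reads, another pseudocount of 10, no filter, library rescaling, array weights, a gene-length trend, a replicate block, a threshold of 0.01 and omitted libraries. Gene positions were those of GENCODE M21, in which 99.5 % of the listed genes were found, and overlap with antisense genes was counted from annotated exon positions. Words of 75 bases shared with transcripts of other genes were counted separately. They made up 13.6 % of the words of Nfkb2 and 1.38 % of those of Bcl3.

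The members and the gene lists were chosen with earlier results of these data known. All members are named, and from each list the count in each direction with examples among the largest called changes of genes with a mean of at least 100 normalized counts. Counts and intervals cover the spread between these libraries.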

Additional observations from a re-analysis of the deposited data

Results flagged for a closer look

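The response to stimulation differed between 1 % and 5 % O2, by the interaction test in limma, for 9 members. The differences on the log2 scale were -0.61 for Relb, -0.15 for Nfkb1, -0.36 for Nfkb2, -1.46 for Nfkbia, -1.24 for Nfkbie, -1.25 for Nfkbiz, -1.55 for Bcl3, -1.43 for Tnfaip3 and -1.26 for Ier3. Rela, the remaining member, had no called difference.

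In 3 of 40 groups of 6 libraries (10 members in 4 groups), the highest library lay far from the rest by Dixon's criterion, which flags about 1 in 20 groups by chance. Nfkbia was at 1056 normalized counts and Bcl3 at 159 in replicate 4 of 5 % STIM. Nfkbie was at 182 in replicate 3 of 5 % CTRL.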

How the results depend on the processing

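The number of members called stayed within 1.5 times its value in all 64 alternatives over the 5 comparisons, and 627 of 640 recomputed log2 fold changes of members kept their direction and their side of the threshold. The exceptions follow. Bcl3 between O2 levels in unstimulated myotubes, not called in any of these, turned from -0.0727 to 0.00595 after rescaling every library to 1 common total (adjusted p = 0.975) and to 0.0243 without 1 % CTRL replicate 1 (adjusted p = 0.892), and was -0.0727 without 5 % STIM replicate 4. Rela passed the test for stimulation under 5 % O2 in edgeR (adjusted p = 0.0432), voom (0.0468), DESeq2 (0.0473), with the gene-length trend removed (0.0337), with rescaled libraries (0.00890) and without 1 % CTRL replicate 1 (0.0423). Nfkbie under 1 % O2 passed as given with its values. Relb between O2 levels without stimulation (adjusted p = 0.0164) and the Nfkb1 interaction (0.0180) did not pass 0.01. Of 384 counts over the full lists of tested genes 3 moved by over 1.5 times: at a threshold of 0.01, chemokines called between O2 levels without stimulation numbered 5 and kinases with an interaction 0 (2 at 0.05), and DESeq2 gave 5 of the 14 tested chemokines with an interaction (8 in limma). Rescaling shifted the median of all genes by less than 0.1, to 0.08 between O2 levels without stimulation.

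Replicate numbers did not pair the libraries: over 36 same-numbered pairs the correlation of deviations had a median of 0.01 and exceeded 0.1 in 2. With the replicate block, 10 members rather than 9 rose under 5 % O2 (Rela, adjusted p = 0.0487), and the counts in the other comparisons were 9, 7, 10 and 9, as without it.

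Leaving out 5 % STIM replicate 4, and setting aside listed genes tested only through 5 % STIM, were chosen after the data were seen.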

Other observations

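Over the 24 libraries, the tested genes outside the members whose log2 level followed Nfkbia most closely were Vcam1 (Pearson r = 0.960), Cxcl1 (0.960), Ccl2 (0.959), Hmox1 (0.956) and Ccl7 (0.954). Vcam1 encodes a leukocyte adhesion molecule, Hmox1 a heme-degrading enzyme induced by oxidative stress, and the other 3 are chemokines. Hmox1 averaged 1848 normalized counts in 5 % CTRL, 3424 in 5 % STIM, 1847 in 1 % CTRL and 2211 in 1 % STIM. The genes closest to Rela were Sun2 (0.917), Shmt2 (0.911), Pink1 (0.906), Setd1a (0.895) and Grina (0.891). These correlations are descriptions, since the libraries share 4 groups and thus the group differences.

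Among the members themselves, the closest pairs were Relb with Nfkb2 (r = 0.959), Nfkbia with Nfkbie (0.954), Nfkb2 with Nfkbia (0.945) and Nfkb2 with Nfkbie (0.944). Tnfaip3 and Ier3 correlated at 0.822 with each other and at no more than 0.412 with any other member. Some of their correlations were negative, with Ier3 at -0.51 with Rela, -0.50 with Nfkb1 and -0.42 with Nfkbiz, and Tnfaip3 at -0.32 with Rela. Nfkbiz was closest to Nfkb1 (0.934).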
